A study of Sus scrofa with 12 samples.

Results

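The glucocorticoid receptor gene and 9 genes that respond to glucocorticoids or to fasting were described in the longissimus dorsi, the long back muscle that gives the pork loin. The genes were NR3C1, FKBP5, TSC22D3, KLF9, KLF15, SGK1, DUSP1, CEBPD, PDK4 and ANGPTL4, chosen by symbol, and 9 of the 10 had a row among the 25880 genes of the count tables. The pig identifier that carries TSC22D3 has no row in these tables and the gene is not analysed here. All 9 genes passed the filter on low counts, which left 13373 genes to test.

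The study compared 12 Iberian pigs, 6 with a high and 6 with a low estimated breeding value for muscle myoglobin, the High MB and Low MB groups. All were castrated males of a single commercial population, fed a restricted ration while growing and then fattened outdoors in a free-range system. Neither group had a treatment or a genetic change. Muscle myoglobin ran from 2.376 to 2.559 mg/g in the High MB pigs and from 1.226 to 1.58 mg/g in the Low MB pigs, and the breeding value from 0.159 to 0.206 and from -0.248 to -0.149. The groups were therefore the ends of a breeding value and not an exposure to hormone or food, and neither blood cortisol nor the time of the last feed is given in the labels.

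Each library came from 1 pig, and the reads assigned to genes numbered between 38914271 and 91318334 per library. The libraries fell into a deep class of 5 (pigs 4 and 6 of the High MB group with pigs 1, 5 and 6 of the Low MB group, each with at least 59227608 gene counts) and a standard class of 7 (each with at most 40001432). High MB pig 2 stood apart, with 14.5% of its counts in its 10 most abundant genes against 17.0% to 24.8% in the other libraries. The tissue was checked with muscle markers, of which ACTA1, skeletal muscle actin, was the most abundant. The 5 markers with a row summed to 38708 to 87157 CPM in the High MB pigs and to 66406 to 116635 CPM in the Low MB pigs. CPM are counts scaled to the size of each library.

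Glucocorticoids such as cortisol enter cells and bind the glucocorticoid receptor, which is held by chaperones in the cytoplasm until it binds hormone and then moves to the nucleus to raise or lower the transcription of its targets. In skeletal muscle these hormones are known to favour protein breakdown and to spare glucose, and fasting acts in the same direction through falling insulin, rising fatty acids and the PPAR receptors. FKBP5, KLF9, KLF15, SGK1, DUSP1, CEBPD and TSC22D3 are widely used as early targets of the receptor, whereas PDK4 and ANGPTL4 respond both to glucocorticoids and to fatty acids.

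The bases just before the annotated start of the RefSeq gene models of the genome build Sscrofa11.1 are shown for 3 of the genes. NR3C1 and SGK1 are shown because they had the smallest unadjusted p between the groups, a choice made after their values were seen, and DUSP1 because it held the cAMP element. NR3C1 lies on the minus strand and the sequence is chr2:144956452-144956701, with the hexamer of the receptor element in capitals. SGK1 lies on the plus strand and its sequence is chr1:29625536-29625785, with no match to any motif searched. DUSP1 also lies on the plus strand, at chr16:51457674-51457923, with the cAMP element in capitals.
NR3C1: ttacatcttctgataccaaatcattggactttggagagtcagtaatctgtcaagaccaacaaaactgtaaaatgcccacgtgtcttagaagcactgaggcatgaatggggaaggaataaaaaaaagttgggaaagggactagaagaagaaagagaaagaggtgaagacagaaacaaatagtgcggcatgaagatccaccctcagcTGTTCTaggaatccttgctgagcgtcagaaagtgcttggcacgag
SGK1: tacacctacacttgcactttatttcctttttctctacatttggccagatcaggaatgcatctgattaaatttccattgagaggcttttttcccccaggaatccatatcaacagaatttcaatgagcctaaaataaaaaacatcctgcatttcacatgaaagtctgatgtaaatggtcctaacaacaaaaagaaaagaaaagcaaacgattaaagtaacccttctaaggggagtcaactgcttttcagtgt
DUSP1: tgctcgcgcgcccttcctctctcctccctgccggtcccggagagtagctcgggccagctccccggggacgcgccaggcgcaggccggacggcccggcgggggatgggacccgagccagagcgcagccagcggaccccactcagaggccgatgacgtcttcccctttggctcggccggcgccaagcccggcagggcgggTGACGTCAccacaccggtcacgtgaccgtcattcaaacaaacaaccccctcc

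Windows of 300 bases, 250 before and 50 after the start, were cut for all 10 genes, and both strands were searched. The start was the outermost end of each whole gene model, and any further starts inside a model were not searched. Whether the start taken is the one used in muscle was not tested. The core of the full receptor element was in 0 of the 10 windows and in 0.312% of 19533 promoters of the annotation, and the PPAR element was in 0 of the 10 and in 0.0307%. The receptor hexamer, TGTTCT or AGAACA, which overlaps 1 arm of the full element, was in 1 of the 10, that of NR3C1 at position -45 from the start, and in 12.1% of all promoters. The cAMP element TGACGTCA was in 1 of the 10, that of DUSP1 at position -52, and in 2.26% of all promoters. The windows differed in base composition. SGK1 and NR3C1 (43.7%) had the lowest GC content and CEBPD (76.3%) and TSC22D3 (84.3%) the highest, against a median of 58.7% over all promoters. The model of KLF9 in this annotation holds only the coding part of the gene (732 bases of exon), so its window starts near the first codon.

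Levels were first set side by side per kilobase of annotated exon, as CPM per kb over the 12 pigs. PDK4, the kinase that shuts off pyruvate dehydrogenase and so spares glucose, had the highest level with 269 CPM per kb. DUSP1, a phosphatase that switches off MAP kinases, and FKBP5, a chaperone partner that lowers the affinity of the receptor for hormone, followed with 73.1 and 57.2 CPM per kb. CEBPD, a transcription factor of acute responses and of fat cell formation, had 20.4 CPM per kb. ANGPTL4, a secreted inhibitor of lipoprotein lipase, and the receptor gene NR3C1 were close to each other, at 7.92 and 7.64 CPM per kb. KLF15, a transcription factor of amino acid breakdown, had 4.63 CPM per kb, and SGK1, a kinase that regulates ion channels and transporters, had the lowest level with 3.48 CPM per kb. No such level was given to KLF9, a transcription factor that responds early to glucocorticoids and thyroid hormone, because of its incomplete model. The lengths are those of RefSeq, while the genes were counted on Ensembl identifiers.

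When the High MB pigs were compared with the Low MB pigs, 0 of the 9 genes passed the thresholds of the study (adjusted p under 0.10 with a log2 fold change beyond 0.58 in size) in edgeR's quasi-likelihood test, and the background was 0% of the 13373 genes tested. DESeq2, the tool of the study, called 0 of the 9 and 0.201% of the 14417 genes to which it gave an adjusted p. At an unadjusted edgeR p under 0.05, SGK1 was higher and NR3C1 lower in the High MB group, 2 of 9 genes, against 8.46% of all genes (5.33% on the higher and 3.13% on the lower side). Log2 fold changes of the High MB against the Low MB group were positive for 3 of the 9 genes and negative for 6, where 46.9% of all genes tested were positive. The median log2 fold change was -0.09 over the 9 genes and -0.02 over all genes tested.

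**Figure D1:**
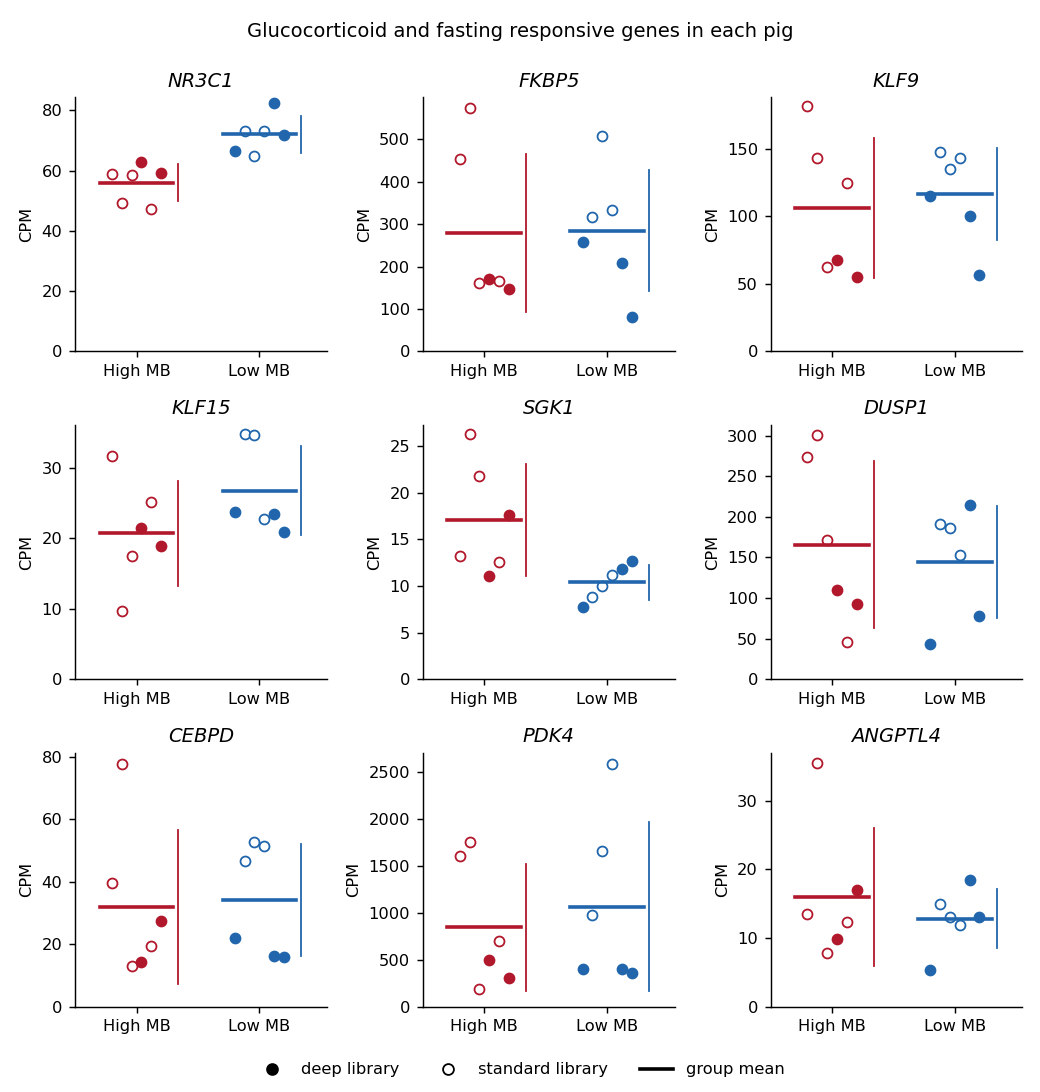
CPM of each gene in the 12 pigs (vertical axes, each from 0), with the High MB and Low MB groups side by side, filled points for deep and open points for standard libraries, a thick line at the group mean and a thin vertical line over 1 SD either side of it. The 6 Low MB pigs sit above the 6 High MB pigs for NR3C1 (64.9 to 82.5 against 47.4 to 62.8 CPM), and the groups overlap for the other 8 genes.

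NR3C1 (ENSSSCG00000014401, chr2:144822937-144956451 on the minus strand) encodes the glucocorticoid receptor itself. Its level had a low of 47.4, a median of 58.6 and a high of 62.8 CPM in the High MB group, and of 64.9, 72.5 and 82.5 CPM in the Low MB group. Every Low MB pig was above every High MB pig, which held for 1 of the 9 genes and for 0.194% of all genes tested (0.426% had groups without overlap in either direction). The means were 56.0 ± 6.18 and 72.0 ± 6.22 CPM (SD, n = 6 each), a fold of 0.777 and a log2 fold change of -0.36 (SE 0.10, 95% interval -0.58 to -0.15). The exact two-sided permutation test over all splits of the pigs into 6 and 6 gave p = 0.00216, the smallest that this comparison allows. The difference did not pass the correction over all genes, with an adjusted p of 0.563 by edgeR's quasi-likelihood test with Benjamini-Hochberg adjustment (unadjusted 0.00267) and of 0.192 by DESeq2. It kept its sign in both depth classes, with log2 fold changes of -0.23 among the deep and -0.39 among the standard libraries.

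SGK1 (ENSSSCG00000021443, chr1:29625786-29753619 on the plus strand) is a kinase gene known to be induced by glucocorticoids and by cell stress. Its level ran from 11.06 over a median of 15.4 to 26.4 CPM in the High MB group and from 7.79 over 10.6 to 12.7 CPM in the Low MB group. High MB pigs 1, 2, 3 and 6 were above every Low MB pig, while pigs 4 and 5 lay within the range of the Low MB group. The means were 17.1 ± 6.00 and 10.4 ± 1.86 CPM (SD, n = 6 each), a fold of 1.65 and a log2 fold change of 0.72 (SE 0.21, 95% interval 0.27 to 1.17). In the exact permutation test p was 0.0173, and the adjusted p was 0.563 with edgeR (unadjusted 0.00374) and 0.153 with DESeq2, so the difference did not pass the correction either. The log2 fold change was 0.46 within the deep libraries, 0.89 within the standard libraries and 0.57 without High MB pig 2.

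Markers of macrophages were also higher in the High MB group, and their part in the SGK1 difference was not tested. Of 7 macrophage markers, 0 were called, 5 had an unadjusted edgeR p under 0.05 (5.33% of all genes did on the higher side), all 7 had positive log2 fold changes (median 0.93), and the summed level ran from 51.9 to 123 CPM in the High MB pigs and from 27.0 to 60.8 CPM in the Low MB pigs (exact permutation p = 0.0216). SGK1 and the summed macrophage level had r = 0.70 over the 12 pigs (permutation p = 0.0123, adjusted p over 54 such relations 0.203, rho = 0.58). Without the 2 pigs farthest from the median of the macrophage sum, r became 0.29. The value of r was 0.27 among the 6 High MB pigs, 0.87 among the 6 Low MB pigs and 0.79 within the 7 standard libraries. Fewer cells of a type and less RNA per cell cannot be told apart in these bulk libraries. Markers of slow fibres were higher too, 5 of 5 at an unadjusted p under 0.05 and 0 called, with sums of 5764 to 11083 CPM in the High MB and 4100 to 7354 CPM in the Low MB group (exact permutation p = 0.0173), and no MYH7 row was in the tables. For SGK1 and the slow fibre sum r was 0.46 (permutation p = 0.130, adjusted p = 0.438), and for NR3C1 it was -0.48 (permutation p = 0.110, adjusted p = 0.426). NR3C1 and the macrophage sum had r = -0.59 (permutation p = 0.0431, adjusted p = 0.284). Within the groups these values were not negative throughout. The r of NR3C1 with the slow fibre sum was 0.04 among High MB and 0.36 among Low MB pigs, and with the macrophage sum it was -0.46 and 0.34. Within the 7 standard libraries, which hold pigs of both groups, the values were -0.62 and -0.73.

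KLF15 (ENSSSCG00000036742, chr7:53877813-53890558, minus strand) came next by unadjusted p. Its lowest, median and highest levels were 9.68, 20.2 and 31.7 CPM in the High MB group and 20.9, 23.6 and 34.8 CPM in the Low MB group. The groups overlapped, Low MB pigs 2 and 3 lay above all High MB pigs, and the lowest value belonged to High MB pig 2. The log2 fold change was -0.37 (SE 0.23, 95% interval -0.86 to 0.13, exact permutation p = 0.141, edgeR adjusted p = 0.659). It was -0.20 without High MB pig 2 and -0.53 without High MB pig 1.

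**Figure D2:**
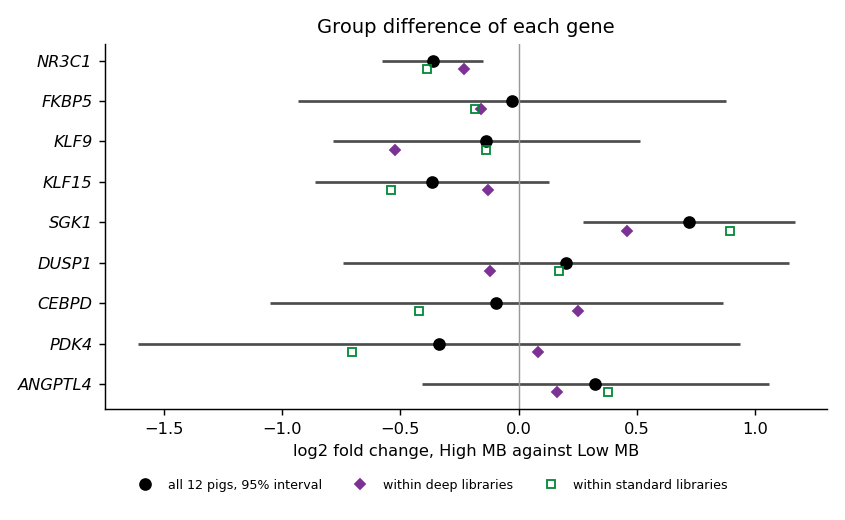
Log2 fold change of the High MB against the Low MB group for the 9 genes (horizontal axis, 0 marked by a line), with black points and 95% intervals from edgeR over all 12 pigs, diamonds within the deep and squares within the standard libraries. The intervals of NR3C1 (-0.58 to -0.15) and SGK1 (0.27 to 1.17) lie on 1 side of 0, and those of the other 7 genes cross it.

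The other 6 genes had groups that overlapped and wide intervals. FKBP5 (ENSSSCG00000001549, chr7:31441764-31550704) ran from 148 over a median of 168 to 574 CPM in the High MB group and from 80.8 over 287 to 508 CPM in the Low MB group. High MB pigs 1 and 2 were high and the other 4 pigs of that group lay between 148 and 170 CPM. The log2 fold change of FKBP5 was -0.03 (SE 0.42, 95% interval -0.93 to 0.88), so a change of nearly 2-fold in either direction lay within the interval. The sign turned in 7 of the 12 fits that left out 1 pig, with values from -0.35 without High MB pig 2 to 0.23 without Low MB pig 3.

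KLF9 (ENSSSCG00000021646, chr1:223723613-223747661) had a lowest, median and highest level of 55.0, 96.4 and 182 CPM in the High MB group and of 56.8, 125 and 147 CPM in the Low MB group. The groups overlapped, and High MB pig 1 lay above every Low MB pig. The estimated log2 fold change was -0.14 (SE 0.30, 95% interval -0.78 to 0.51).

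DUSP1 (ENSSSCG00000016991, chr16:51457924-51461095) ran from 46.3 over 141 to 300 CPM in the High MB group and from 43.5 over 169 to 215 CPM in the Low MB group. High MB pigs 1 and 2 exceeded the whole Low MB group, and the lowest pig of each group was close to the other. For DUSP1 the log2 fold change was 0.20 (SE 0.44, 95% interval -0.74 to 1.14), and it was -0.04 without High MB pig 2.

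CEBPD (ENSSSCG00000032367, chr4:79872863-79874481) had 13.0, 23.4 and 77.8 CPM as its lowest, median and highest level in the High MB group and 15.9, 34.3 and 52.7 CPM in the Low MB group. A single pig, High MB pig 2, exceeded the whole Low MB group. For CEBPD the log2 fold change was -0.09 (SE 0.45, 95% interval -1.05 to 0.86) and became -0.56 without that pig.

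PDK4 (ENSSSCG00000015334, chr9:75246956-75260134) ran from 194 over 600.1 to 1760 CPM in the High MB group and from 358 over 694 to 2587 CPM in the Low MB group. Pigs 1 and 2 of the High MB group and pigs 3 and 4 of the Low MB group each had at least 1605 CPM, and the other 8 pigs had at most 982 CPM. The log2 fold change of PDK4 was -0.34 (SE 0.60, 95% interval -1.61 to 0.94). It was 0.16 without Low MB pig 4, -0.67 without High MB pig 2 and 0.08 within the deep libraries.

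ANGPTL4 (ENSSSCG00000013599, chr2:70905767-70912892) had 7.80, 12.9 and 35.5 CPM in the High MB group and 5.38, 13.1 and 18.5 CPM in the Low MB group, again as lowest, median and highest. High MB pig 2 was the highest of all pigs and Low MB pig 1 the lowest. The log2 fold change was 0.32 (SE 0.34, 95% interval -0.41 to 1.06), and it was -0.06 without High MB pig 2. For these 6 genes the exact permutation p was between 0.543 (KLF9) and 0.896 (FKBP5).

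Most of these genes differed widely between pigs of 1 group. The median within-group SD of log2 CPM was 0.687 over the 9 genes and 0.326 over all genes tested. PDK4 had an SD of 1.24, which 1.79% of the genes tested exceeded, and its level spanned 13.3-fold over the 12 pigs. DUSP1 (SD 0.97, exceeded by 5.01% of genes), CEBPD (0.91, 6.27%) and FKBP5 (0.88, 6.94%) spanned 6.91-fold, 6.00-fold and 7.10-fold. ANGPTL4 (0.69, 13.8%), KLF9 (0.63, 17.1%) and KLF15 (0.47, 29.4%) followed. SGK1 (0.39, 38.3%) was near the middle of all genes. NR3C1 was the steadiest, with an SD of 0.14, which 93.9% of the genes tested exceeded, and a span of 1.74-fold. The receptor gene thus varied little among pigs in which PDK4, a target gene, varied by more than 10-fold. The lowest count of any of the 9 genes in any library was 294.

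**Figure D3:**
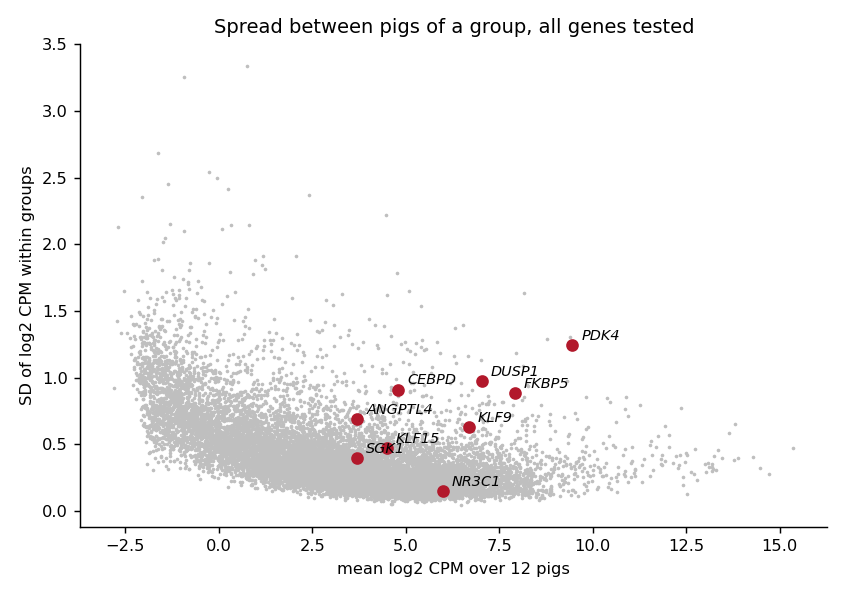
SD of log2 CPM within groups (vertical axis) against mean log2 CPM over the 12 pigs (horizontal axis) for the 13373 genes tested in grey and the 9 genes in red. PDK4 (SD 1.24), DUSP1 (0.97), CEBPD (0.91) and FKBP5 (0.88) lie high, each exceeded by at most 6.94% of the genes, and NR3C1 (0.14) is exceeded by 93.9%.

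FKBP5, KLF9, CEBPD and PDK4 tended to be high and low in the same pigs over the 12 pigs. With values centred on the depth classes r was lower, between 0.68 and 0.79 for the 5 pairs called below, and 1 of them kept its call. Over the 12 pigs, 6 of the 36 pairs of genes had a permutation p under 0.05 after Benjamini-Hochberg adjustment over the 36, of which 5 were positive and joined these 4 genes. DUSP1, the second most variable gene, was in no such pair (r = 0.61 with FKBP5, adjusted p = 0.162). CEBPD and PDK4 had r = 0.86 (adjusted p = 0.00948, rho = 0.81), and without the 2 pigs farthest from the median of CEBPD r was 0.83. FKBP5 and KLF9 had r = 0.84 (adjusted p = 0.00948, rho = 0.86, 0.82 without the 2 farthest pigs). For FKBP5 and CEBPD the values were r = 0.84, adjusted p = 0.00948, rho = 0.81 and 0.82 without the 2 farthest pigs. For KLF9 and PDK4 they were 0.83, 0.0109, 0.85 and 0.82, and for FKBP5 and PDK4 0.80, 0.0119, 0.87 and 0.82. The sixth pair of these 4 genes, KLF9 and CEBPD, had r = 0.72 and an adjusted p of 0.0592.

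The same 5 pairs were positive within each group alone, with r from 0.80 to 0.92 among High MB pigs and from 0.72 to 0.94 among Low MB pigs (n = 6 each). After centring on the means of the groups they all kept an adjusted p under 0.05. Over all pairs of the 9 genes the median r was 0.27, while over all pairs of the 13373 genes it was -0.0026. Among all gene pairs 0.592% had r over 0.8, against 5 of the 36 pairs here. The genes were chosen as known common targets with earlier results of these data in view, and all pairs share the same 12 libraries. Partners outside the list had higher values still: among the 13372 other genes, KLF9 ranked 47 for likeness to FKBP5, CEBPD 51 and PDK4 90.

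**Figure D4:**
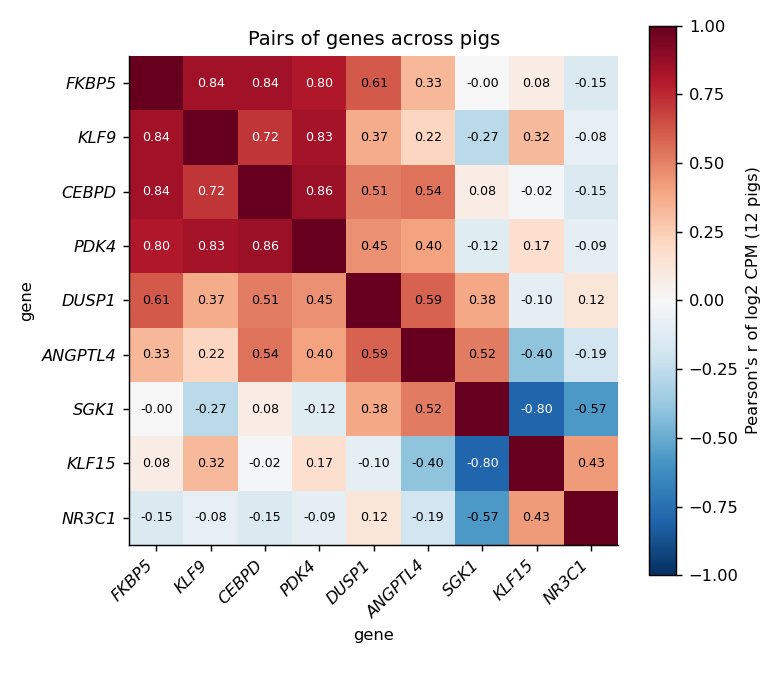
Pearson's r of log2 CPM over the 12 pigs for each pair of the 9 genes (both axes list the genes, the colour scale runs from -1 in blue to 1 in red, and r is printed in each cell). FKBP5, KLF9, CEBPD and PDK4 form a block with r from 0.72 to 0.86, and SGK1 and KLF15 have the most negative r, -0.80.

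The depth of the libraries moved with these 4 genes as well. In a fit with the group and the depth class, the deep libraries were lower than the standard ones by log2 differences of -1.80 for PDK4, -1.17 for CEBPD, -1.08 for FKBP5 and -0.84 for KLF9. All 4 had an unadjusted edgeR p under 0.05, as did 13.9% of all genes, and none passed the correction over all genes (edgeR adjusted p = 0.159 for PDK4, 0.242 for CEBPD, 0.263 for FKBP5 and 0.215 for KLF9), where 0% of all genes were called. DUSP1 had a difference of -0.80 (edgeR adjusted p = 0.423), and the other 4 genes had unadjusted p over 0.2. PDK4 had a median of 403 CPM and a range of 306 to 495 CPM in the 5 deep libraries, and a median of 1605 CPM and a range of 194 to 2587 CPM in the 7 standard ones. CPM already corrects for the number of reads. The share of counted fragments without a unique alignment was also higher in every deep library (5.91% to 6.44%) than in every standard one (4.24% to 5.56%). The source of the classes is not given, so the depth class and other differences between these pigs cannot be told apart. With values centred on the means of the depth classes the same 5 pairs had r between 0.68 and 0.79, and 1 of them, FKBP5 and KLF9, kept an adjusted p under 0.05 (0.0369). Within the 7 standard libraries alone r was between 0.69 and 0.92 with exact permutation p between 0.00694 and 0.0353, and no pair of the 36 passed the adjustment (smallest adjusted p 0.112). No r was computed over the 5 deep libraries. In these, CEBPD and PDK4 did not go together: High MB pig 6 had the highest CEBPD (27.3 CPM) and the lowest PDK4 (306 CPM), and High MB pig 4 the lowest CEBPD (14.3 CPM) and the highest PDK4 (495 CPM). FKBP5 and KLF9 did go together there, both being highest in Low MB pig 1 (258 and 115 CPM), next in Low MB pig 5 (209 and 101 CPM) and lower in the other 3 (80.8 to 170 and 55.0 to 68.0 CPM).

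**Figure D5:**
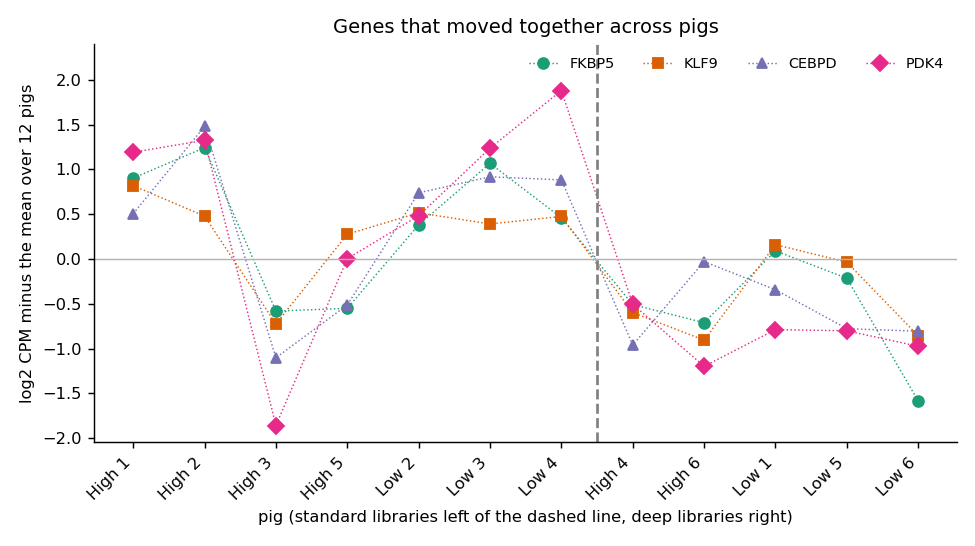
Log2 CPM of FKBP5, KLF9, CEBPD and PDK4 in each pig minus the mean of the gene over the 12 pigs (vertical axis), with the 7 standard libraries left and the 5 deep libraries right of the dashed line. Pigs 1 and 2 of the High MB group with pigs 2, 3 and 4 of the Low MB group are above 0 for all 4 genes, and pigs 3, 4 and 6 of the High MB group with pigs 5 and 6 of the Low MB group are below 0.

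SGK1 and KLF15 went in opposite directions, with r = -0.80 (adjusted p = 0.0116). The call was lost with Spearman's rho (-0.71, adjusted p = 0.0691) and with values centred on the group means (r = -0.75, adjusted p = 0.0733). High MB pig 2 had both the highest SGK1 (26.4 CPM) and the lowest KLF15 (9.68 CPM). Without that pig and Low MB pig 2, the 2 farthest in KLF15, r was -0.55 (permutation p = 0.0960). It was -0.91 within the 7 standard libraries, which hold both of these pigs, and -0.85 with values centred on the depth classes (adjusted p = 0.0166). High MB pig 2 was the highest of the 12 pigs for 5 of the 9 genes and the lowest for 1. FKBP5 and KLF15 had r = 0.08 over the 12 pigs and 0.82 without High MB pig 2 and Low MB pig 6 together. NR3C1 had r between -0.57 and 0.43 with the other 8 genes, and none of these pairs passed the adjustment. With FKBP5, KLF9, CEBPD and PDK4, the r of NR3C1 lay between -0.15 and -0.08, between -0.42 and -0.31 with values centred on the group means and between 0.12 and 0.25 with values centred on the depth classes.

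DUSP1 is also known as an immediate early gene, one of those transcribed within minutes of a stimulus, and it was compared with a list of 11 such genes with a row (FOS, JUN and EGR1 among them, JUN the most abundant). DUSP1 and the sum of the list had r = 0.89 (permutation p = 7e-05, adjusted p over 54 relations 0.00378, rho = 0.86), 0.85 without the 2 farthest pigs and 0.85 within the standard libraries. Of the 11 listed genes, 0 had an unadjusted edgeR p under 0.05 between the groups, against 8.46% of all genes. The sums of the list overlapped, from 295 to 1039 CPM in the High MB and from 328 to 1009 CPM in the Low MB group (exact permutation p = 0.582). FKBP5 (r = 0.69, adjusted p = 0.203) and PDK4 (r = 0.62, adjusted p = 0.284) had lower values with the same sum, which did not pass the adjustment. KLF15 and the macrophage sum had r = -0.71 (permutation p = 0.0104, adjusted p = 0.203).

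For 8 of the 9 genes the 3 genes most like it by Pearson's r over the 12 pigs were taken from the 13372 others. NR3C1 was closest to ZHX2 (r = 0.94), a transcriptional repressor, then to PTPN21, a tyrosine phosphatase, and to ECPAS, a proteasome adaptor. FKBP5 was closest to RAB2A (0.94), a GTPase of the secretory pathway, then to ZNF207 and SMPDL3A. KLF9 was closest to ATP7A (0.94), a copper transporter, then to TRIM63 (0.92), the muscle ubiquitin ligase MuRF1, and to SMPDL3A. PDK4 was closest to TRA2B (0.92), a splicing factor, then to DBT, a subunit of the enzyme complex that breaks down branched-chain amino acids, and to TBC1D1, a regulator of glucose uptake in muscle.

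CEBPD had its highest r with SPIDR (0.98), a gene of DNA repair, whose RefSeq model lies on the opposite strand of chr4 with 455 bases between the ends of the models, and whose counts and those of CEBPD may not be fully separate because the strand setting of the counting is not given. The next for CEBPD were ENSSSCG00000036920 (0.95), which has no symbol here, and WIPI2 (0.94), a gene of autophagy. DUSP1 was closest to DEPP1 (0.97), then to ENSSSCG00000022925 (0.97), also without a symbol, and to CCNT2 (0.96), a cyclin of transcription elongation. SGK1 was closest to CD48 (0.91), a surface protein of white blood cells, then to CORO2A and ANGPT4. KLF15 was closest to ANKAR (0.92), TRIP10 and CA13. CD48, CORO2A, ANGPT4 and ANKAR had low levels, with a mean log2 CPM of -0.27, -1.46, 0.43 and -0.73. These are the highest of many values over 12 pigs and are given as a description.

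The relation with myoglobin inside a group was examined next, because the groups themselves are ends of the breeding value. Among 18 relations of the 9 genes with muscle myoglobin, 9 in each group, r was between -0.57 (SGK1, High MB) and 0.69 (FKBP5, Low MB), and 0 had an exact permutation p under 0.05 (smallest 0.118, adjusted 0.853). With the breeding value in place of the content 0 of 18 did (smallest exact p 0.160).

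Genes around the receptor were then compared between the groups, with lists drawn from general knowledge. Of 14 genes of the receptor machinery, 0 were called, 0 were higher and 1 was lower at an unadjusted p under 0.05 (all genes: 5.33% and 3.13%), and 11 had negative log2 fold changes (median -0.16, against -0.02 over all genes tested). The 1 was NCOR1, a corepressor of nuclear receptors, with 51.1 to 63.6 CPM in the High MB and 57.2 to 73.5 CPM in the Low MB group. NCOR1 had a log2 fold change of -0.22 (SE 0.09, unadjusted p = 0.0341, edgeR adjusted p = 0.569, exact permutation p = 0.0173). The next were PTGES3, the cochaperone p23 (-0.34, unadjusted p = 0.0764), and FKBP4, a chaperone partner that acts opposite to FKBP5 (-0.27, unadjusted p = 0.115). HSD11B1, the enzyme that makes active cortisol inside cells, had means of 23.4 and 23.1 CPM and a log2 fold change of 0.01 (SE 0.33).

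Of 18 further glucocorticoid targets tested out of 22 listed, 0 were called and 0 had an unadjusted p under 0.05, against 8.46% of all genes. Among the 18, 13 had negative log2 fold changes (median -0.10), as did 7103 of all 13373 genes tested (median -0.02). The smallest unadjusted edgeR p belonged to FOXO1, a transcription factor of fasting, with a log2 fold change of -0.47, ZBTB16 with -0.34 and CDKN1A with -0.54, and their exact permutation p were 0.227, 0.145 and 0.102. The atrophy ligases TRIM63 and FBXO32 had log2 fold changes of -0.07 (SE 0.30) and 0.02 (SE 0.27). GLUL, MAOA and MT2A had no row and TAT did not pass the filter on low counts.

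Of 23 fasting and PPAR genes tested out of 26 listed, 0 were called, 2 were higher and 2 were lower among High MB pigs at an unadjusted p under 0.05 (all genes: 5.33% and 3.13%), and 15 had positive log2 fold changes, as did 46.9% of all genes (median 0.08). FABP4, a fatty acid carrier of fat cells, had 37.4 to 133 CPM in the High MB and 21.5 to 76.3 CPM in the Low MB group, overlapping ranges, with a log2 fold change of 1.00 (SE 0.32, unadjusted p = 0.00769). CIDEC, a lipid droplet protein, had 0.90 (SE 0.38, unadjusted p = 0.0332). Both are also among the adipocyte markers of the lists, of which all 7 with a row were positive and 2 had an unadjusted p under 0.05, with summed levels of 324 to 625.2 CPM in the High MB and 324 to 549 CPM in the Low MB group. The part of fat cells in these differences was not tested. IRS2, an adaptor of insulin signalling, had -0.50 (SE 0.20, unadjusted p = 0.0261), and VLDLR, a lipoprotein receptor, had -0.23 (SE 0.10, unadjusted p = 0.0399). CD36 and ACOT1 had no row.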

How the data were processed

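RNA from the longissimus dorsi of 12 pigs was sequenced as paired reads, 1 library per pig. Per the labels and the methods of the study, the authors used FastQC, TrimGalore, hisat2 with Sscrofa11.1 and htseq-count, and deposited raw counts per gene with no normalization. Tool versions, annotation release and strand setting are not given in the sources used here. Between 42.8% and 44.0% of the counted fragments were assigned to a gene, and between 46.4% and 47.7% lay in no annotated feature. The summary lines were kept out of library sizes. The counts per transcript were not used here.

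Groups came from the labels. Counts were tested with edgeR 4.0.16 in R 4.3.3 (TMM, filterByExpr, glmQLFit and glmQLFTest, no covariate), with Benjamini-Hochberg adjustment over all genes tested. CPM used TMM library sizes and log2 CPM a prior count of 2. Permutation tests of correlations drew 100000 resamples with n of 10 or more and were otherwise exact, and all were two-sided. DESeq2 1.42.0, other size factors, other filters, robust estimation, a depth class or a replicate block as covariate, removal of the 10 most abundant genes and each pig left out in turn were alternatives. The correlations of pairs within the standard libraries were added after seeing the data. The code was tested on simulated counts.

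All 10 genes were named, together with the genes of each list with an unadjusted p under 0.05 or, with fewer than 3 of these, its 3 smallest p, and the 3 genes most like each member, except for some that are not reported here. HSD11B1, TRIM63 and FBXO32 were named from the lists after their values were seen. The members and lists were chosen with earlier results of these data known. Lists of cell type markers were endothelial, fibroblast, adipocyte, macrophage, slow fibre, fast fibre and muscle genes. No pair of libraries agreed within sampling noise (their chi-square over its degrees of freedom was at least 38.8). Symbols, positions and promoter sequences came from the RefSeq annotation and genome of Sscrofa11.1.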

Additional observations from a re-analysis of the deposited data

Results flagged for a closer look

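ANGPTL4, the secreted inhibitor of lipoprotein lipase, had 1 pig far from the others of its group. In Low MB pig 1 its log2 CPM was 2.44, and the gap to the next pig was 0.639 of the whole range of the group, above Dixon's 95% critical value for 6 pigs. It was the only such value in 18 groups of 6 pigs (9 genes in each group), and chance gives such a value in about 1 of 20 groups. Low MB pig 1 was a deep library, had the lowest level of 3 of the 9 genes, and had the lowest DUSP1 (43.5 CPM) and SGK1 (7.79 CPM) of its group.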

How the results depend on the processing

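No alternative called any of the 9 genes. NR3C1 (-0.40 to -0.31 with each pig left out) and SGK1 (0.57 to 0.82) kept theirs throughout, as did KLF15 (-0.53 to -0.20) and KLF9 (-0.36 to -0.0030). The sign turned with single pigs left out for FKBP5 (-0.35 to 0.23), DUSP1 (-0.043 to 0.39), CEBPD (-0.56 to 0.077), PDK4 (-0.67 to 0.16) and ANGPTL4 (-0.062 to 0.46), all with intervals across 0. It also turned for FKBP5 with upper quartile factors (0.019) and within the deep libraries for DUSP1 (-0.12), CEBPD (0.25) and PDK4 (0.081), and the cause was not tested. DESeq2 called 29 of all genes, where edgeR called 0, with 0 members among them. With each pig left out, edgeR called 0 genes, between 844 and 1454 had an unadjusted p under 0.05, 2 to 3 members did (KLF15 joined without High MB pig 1), 6 to 7 pairs passed the adjustment, and the median SD was between 0.626 and 0.724. Centring on the depth classes left 2 of the 6 pairs passing, and the 7 standard libraries alone left 0, where fewer pigs entered the test.

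Same-numbered pigs did not deviate together (correlations between -0.21 and 0.14, and 0 of 6 pigs was closest to its own number). The labels do not say whether the numbers pair the pigs, and a pairing with little effect on expression would not show here. The replicate block gave 0 called genes and 957 at an unadjusted p under 0.05, against 1132 without it, and the log2 fold changes were -0.37 for NR3C1 (unadjusted p = 0.0136) and 0.67 for SGK1 (0.0111).

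Each value of the 9 genes rests on at least 294 counts. With 6 pigs against 6 no exact permutation p of a group difference can fall below 0.00216. The time of slaughter and the batch of each pig are not in the labels.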

Other observations

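Other cell types of the muscle were described by marker lists, beside the members. Of 7 fibroblast markers, 0 were called, 4 had an unadjusted edgeR p under 0.05 (5.33% of all genes did on the higher side), all 7 had positive log2 fold changes (median 0.64), and the sums ran from 646 to 1146 CPM in the High MB and 340.2 to 841 CPM in the Low MB group (exact permutation p = 0.0519). Of 7 endothelial markers, 0 were called, 1 had an unadjusted p under 0.05 and all 7 were positive (median 0.27, exact permutation p of the sum 0.0671). Of 7 fast fibre markers 3 had a row, and 1 of these had an unadjusted p under 0.05, lower in the High MB group. Among the 9 genes, SGK1 had the highest r with the endothelial sum, 0.58 (permutation p = 0.0473, adjusted p = 0.284), followed by ANGPTL4 with 0.52 (permutation p = 0.0803, adjusted p = 0.401), and CEBPD had r = -0.51 with the slow fibre sum (permutation p = 0.0923, adjusted p = 0.416).

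The pigs differed in how many of the members they held at the ends. High MB pig 2 was among the 3 highest pigs for 7 of the 9 genes, and High MB pig 1 and Low MB pig 3 for 4 each. High MB pig 3 was among the 3 lowest for 7 genes, Low MB pig 6 for 5 and High MB pig 6 for 4. Pigs of both groups were thus found at both ends.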
